A study of Macaca mulatta with 8 samples.

Results

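Tyrosinase (TYR) was followed in 2 areas of the rhesus macaque neocortex, area 46 (A46) of the prefrontal cortex and the primary motor cortex (M1). It was read by a single probe, A_01_P008096, which carries the transcript identifier XM_001105033 and lay at 2 spots on each array. It was 1 of 835 genes that could be named and 1 of 20217 probes on the array. TYR was chosen by its measured log2 signal on these same arrays, which differed between A46 and M1. Its levels are therefore a description, and no test of that difference is given. Both areas were dissected from the left hemisphere of 4 untreated adolescent animals of 2.6 to 2.7 years, bred in group cages, M1 from its forelimb region and A46 from both banks of the principal sulcus. Total RNA of each area was labelled with Cy3 and measured on 4 single-colour arrays, numbered 1 to 4 within the area. The tissue was bulk cortex and holds all its cell types.

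TYR encodes a copper-dependent enzyme that hydroxylates tyrosine to L-DOPA and oxidises L-DOPA to dopaquinone, the first and rate-limiting steps of melanin synthesis. It is known from melanocytes, which lie in the skin, the hair follicle and also the leptomeninges around the brain, and from the pigment epithelium of the eye, where it works inside melanosomes. Catecholamine neurons make L-DOPA with another enzyme, tyrosine hydroxylase (TH), and the cerebral cortex is not a pigmented tissue.

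TYR was detected in both areas at a low level, and every A46 array lay above every M1 array. The level is the mean log2 signal of the 2 spots minus the 75th percentile of all probes on that array. In A46 it was -3.80, -4.44, -4.95 and -4.72 on replicates 1 to 4. In M1 it was -6.74, -6.20, -6.74 and -6.20. The A46 arrays spread over 1.16 log2 units, with replicate 1 the highest, and the M1 arrays over 0.54 units, falling close to 2 values. Between the lowest A46 array and the highest M1 array there was a gap of 1.25 log2 units, or 2.37-fold. Such a lack of overlap was seen in 6.46% of the 14698 tested probes, 2.96% with A46 above M1, and nothing is read from it for TYR, which was chosen by this contrast. The mean was -4.48 ± 0.50 (SD, n = 4) in A46 and -6.47 ± 0.31 in M1, a difference of 1.99 ± 0.26 (SE of the limma fit) log2 units, or 3.98-fold higher in A46. Limma draws the variance of each probe toward that of all tested probes, so this SE does not come from TYR alone. In bulk tissue, fewer cells that carry a transcript and less of it per cell cannot be told apart.

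**Figure D1:**
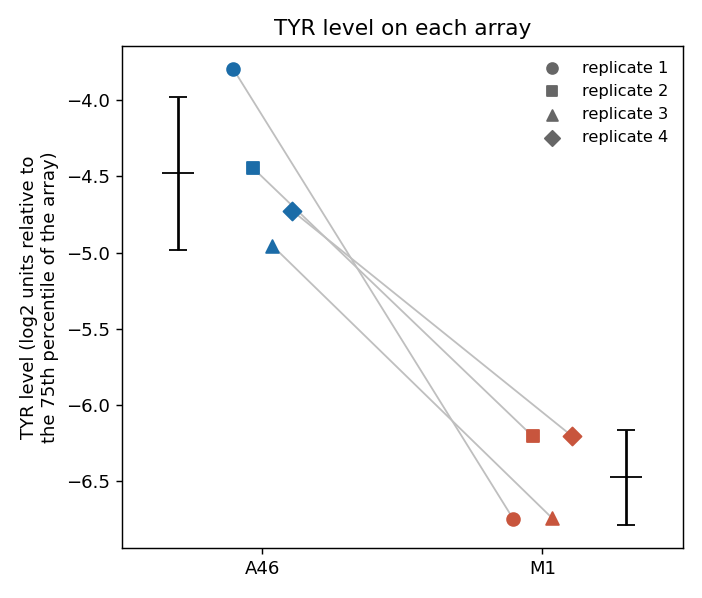
TYR level (vertical axis, log2 units, with the 75th percentile of each array at 0) on the 4 A46 and the 4 M1 arrays. Symbols give the replicate number, grey lines join arrays of the same number, and black marks with bars give the mean ± SD of each area. The A46 arrays lie between -4.95 and -3.80 and the M1 arrays between -6.74 and -6.20.

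In the scanner's own units, after background subtraction and detrending within the array, the TYR signal averaged over both spots was 99.1, 63.0, 60.0 and 66.9 in A46. In M1 it was 11.7, 17.3, 15.2 and 27.3. The A46 arrays thus stood at 60.0 units or more, and the M1 arrays at 27.3 units or less. The 75th percentile of all probes lay between 1232 and 2008 units, so TYR was a dim probe on every array. On the A46 arrays 35.7% to 45.2% of all probes were dimmer than TYR, and on the M1 arrays 27.1% to 29.5%. By this rank on the array, which needs no scaling between arrays, the areas did not overlap either.

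The spots of TYR could be read before any processing, as the median pixel brightness of the spot beside that of its local background. In A46 the 8 spots had a median signal between 91.5 and 146 units over a local background of 30 to 39 units, a ratio of 2.86 to 3.95. In M1 the 8 spots lay between 51 and 84 units over a background of 31 to 38 units, a ratio of 1.38 to 2.21. The local background was thus alike in both areas, and the unprocessed spots did not overlap. All 16 spots were called well above background by the scanner software, and none was saturated or called an outlier. The excess over the background, in units of the pixel SD of that background, was 11.0 to 20.6 in A46 and 1.84 to 7.08 in M1. The 2 spots with the least excess, 1.84 and 2.36, were both on M1 replicate 1.

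**Figure D2:**
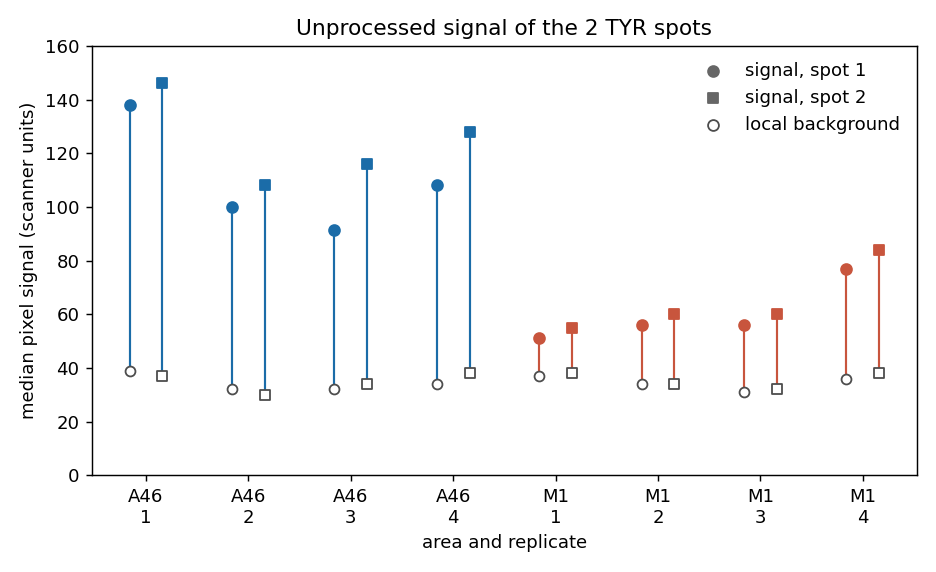
Median pixel signal (vertical axis, scanner units, from 0) of the 2 TYR spots on each array, with filled symbols for the spot, open symbols for its local background and a line joining them. The A46 spots reach 91.5 to 146 units and the M1 spots 51 to 84 units, while the background stays between 30 and 39 units throughout.

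The difference was read from each spot by itself. With spot 1 alone TYR was higher in A46 by 1.91 log2 units, and with spot 2 alone by 2.08. The spots of an array differed by 0.04 to 0.49 log2 units, while the median over all probes lay between 0.09 and 0.20 on an array. They differed most on A46 replicate 1 (114.8 and 83.5 units) and on M1 replicate 1 (13.6 and 9.70 units), the pair hybridised on a shared slide. Before detrending spot 1 was the dimmer on all 8 arrays, and after it spot 1 was the brighter on 6 of them. On A46 replicate 1 the spots went from 92.4 and 101.5 units to these values, and on M1 replicate 1 from 8.75 and 12.8 units. The scanner software's own error was 10.1% to 11.3% of the processed signal in A46 and 11.9% to 19.3% in M1.

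Nearness to the detection limit differed among the M1 arrays. On M1 replicate 4 the TYR signal of 27.3 units stood against 22.3 units for the dimmest probe called well above background there, and 0.485% of such probes were dimmer. On the other M1 arrays 3.26% to 8.01% were dimmer, and on the A46 arrays 15.1% to 27.7%. The median of the 153 negative control spots, which match no transcript, was also highest on M1 replicate 4, at 4.90 units against 1.22 to 1.35 on the other M1 arrays and 1.11 to 2.80 on the A46 arrays. The part of this in the TYR signal of that array was not tested. With the negative control median subtracted, the difference was 2.12 log2 units, and without M1 replicate 4 it was 2.08.

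Arrays of the same number were compared next. A46 was higher than M1 by 2.95, 1.76, 1.79 and 1.48 log2 units in pairs 1 to 4, or 7.72-, 3.39-, 3.45- and 2.78-fold. The sign in all 4 pairs was fixed by the lack of overlap. The pairs averaged 1.99 ± 0.65 (SD, n = 4), and pair 1 lay above the other three. Without pair 1 the difference was 1.67 log2 units. The deviations of TYR from the area means, A46 before M1, were 0.68 and -0.27 in pair 1, 0.04 and 0.27 in pair 2, -0.47 and -0.27 in pair 3, and -0.25 and 0.27 in pair 4. They had the same sign in pairs 2 and 3 and opposite signs in pairs 1 and 4. Taking the replicate number into the fit as a block left the limma SE of TYR near where it was (0.25 against 0.26), whereas the median SE over all tested probes went from 0.18 to 0.11. Both SEs of TYR are drawn toward the variance of all tested probes. They therefore do not show whether pairing narrowed the spread of TYR itself, which is given by the SD of 0.65 between pairs.

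The arrays were scanned on 4 days. Pairs 1, 2 and 4 were each scanned on 1 day, and pair 1 also shared a slide. M1 replicate 3 was scanned with pair 2, and A46 replicate 3 alone on the last day. Within the first day TYR differed by 2.03 log2 units (1 A46 against 2 M1 arrays), within the second by 2.95 and within the third by 1.48 (1 against 1 each). Over the 2 earlier days the difference was 2.44 log2 units (2 A46 and 3 M1 arrays), and over the 2 later days it was 1.36 (2 A46 and 1 M1 array). Both later A46 arrays lay below both earlier ones, while M1 replicate 4, the later M1 array, equalled M1 replicate 2 to within 0.01 units. Before scaling to the 75th percentile the A46 arrays did not divide so, with replicate 4 at 66.9 scanner units and the earlier replicate 2 at 63.0. In a fit that took the day of scanning as a fixed block, where A46 replicate 3 adds nothing to the area difference, it was 2.14.

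The tested probes were those called well above background on every array of A46, of M1 or of both. Of these 14698, 3 others stood as far or farther above M1 in A46, and TYR ranked 11th by size in either direction. Among the 586 tested probes with a gene name it had the largest difference in either direction. The median difference over all tested probes was 0.01 log2 units, with quartiles of -0.14 and 0.17, and 183 probes (1.25%) differed by 2-fold or more. The spread of TYR between arrays of an area was also wide: its pooled SD of 0.42 exceeded that of 76.6% of the tested probes, whose median was 0.27. These ranks come from the values by which TYR was chosen.

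The size of the difference depended on how the background was treated. It lay between 1.92 and 2.06 log2 units with quantile normalization, the array median as reference, no shift between arrays, the deposited log2 table, or the signal before detrending. With the local background median subtracted from the median signal it was 1.61. With no background subtraction it was 0.85 log2 units, or 1.81-fold, and with a normexp background correction and an offset of 50 it was 0.72, or 1.64-fold. Both of these leave a constant in the signal, which shrinks the log2 difference of a dim probe, and the areas still did not overlap, with gaps of 0.31 and 0.21 units. In the authors' deposited table the TYR values were 0.87, 0.23, -0.28 and -0.05 in A46 and -2.07, -1.53, -2.07 and -1.53 in M1, on a baseline that the sources used here do not state.

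**Figure D3:**
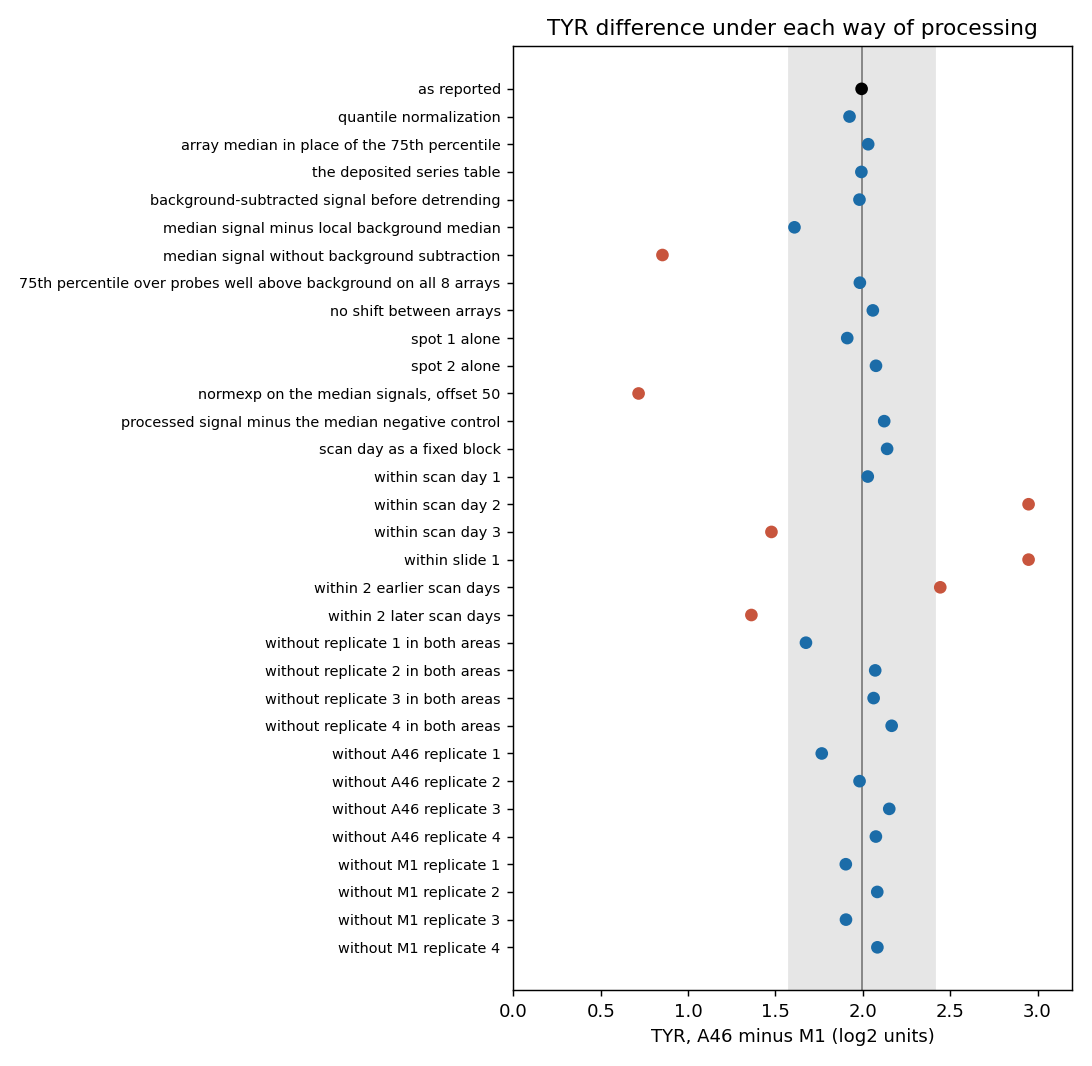
TYR difference, A46 minus M1 (horizontal axis, log2 units), as reported (black) and under each other way of processing, with the grey band giving 1 pooled SD between arrays (0.42) on either side of the reported 1.99. Points in red lie outside the band. All points lie above 0, from 0.72 with normexp to 2.95 for the pair on a shared slide.

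The other genes of pigment synthesis could be read only in small part, since 942 of the 20217 probes (4.66%) were matched to a symbol. Of 223 other genes on 11 lists, 16 were named and 15 were tested. No probe was named here for the other melanin enzymes and melanosome proteins, such as TYRP1, DCT or PMEL, or for the genes of melanosome biogenesis and transport. Of 25 melanocyte regulators 2 were tested, and neither passed, where 0.184% of all tested probes did. TFAP2A, a transcription factor of the neural crest and its melanocytes, had an A46 level of -4.18 ± 0.16 (SD, n = 4) and an M1 level of -4.19 ± 0.13 (difference 0.02 ± 0.13 SE, limma adjusted p = 0.988). EDN3, endothelin 3, a signal for melanocyte precursors, had levels of -1.71 ± 0.19 and -1.63 ± 0.24 (difference -0.08 ± 0.16 SE, limma adjusted p = 0.946). These values are from the brightest of 3 EDN3 probes, and the others are not reported here. The areas overlapped in both genes, as in most tested probes, since 6.46% of all tested probes showed no overlap.

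The few tested genes that handle copper, tyrosine or L-DOPA and its products also overlapped between the areas. Since a lack of overlap was seen in 6.46% of all tested probes, nothing particular to these genes is read from this. SCO1, which delivers copper to cytochrome c oxidase, was the tested member of 16 copper supply genes and differed by -0.03 ± 0.19 SE log2 units (limma adjusted p = 0.987). Of 31 genes of tyrosine and catecholamine metabolism 3 were named and 2 were tested. GCH1, which makes the cofactor of tyrosine hydroxylase, differed by -0.12 ± 0.16 SE (limma adjusted p = 0.911). The dopamine receptor gene DRD2 differed by 0.24 ± 0.29 SE (limma adjusted p = 0.905). DRD2 stood at -3.92, -3.22, -3.21 and -3.19 in A46 and at -4.45, -3.53, -3.28 and -3.24 in M1, with replicate 1 the lowest in both areas. It was higher in A46 by 0.52, 0.31, 0.08 and 0.05 in pairs 1 to 4, and with the replicate block the limma adjusted p was 0.280. TAT, tyrosine aminotransferase of tyrosine breakdown, was not well above background on any array. No probe of TH was named here. Of 24 glutathione and quinone defence genes, which dispose of reactive quinones and peroxides, 5 were tested, with a median difference of 0.05 and values from -0.07 (GSTP1) to 0.17 (GPX1). GPX1 and GPX4 lay above 0 in all 4 pairs, GPX1 at 0.06 to 0.38 and GPX4 at 0.00068 to 0.345. With the block their limma adjusted p was 0.346 and 0.548. How many of all tested probes had the same sign in all 4 pairs is not reported here. Nothing is therefore read from the signs of DRD2, GPX1 or GPX4. For GPX1 the brighter of 2 probes was read, and the other is not reported here. None of the 5 passed in either fit. Of all tested probes, 0.184% passed without the block and 2.59% with it, so nothing particular to these genes is read from this. The smallest p of the 5 without the block was that of the peroxidase gene GPX4, which differed by 0.11 ± 0.14 SE (limma adjusted p = 0.916).

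Of the 15 tested list genes, 0 passed at a limma adjusted p under 0.05, against 0.184% of all 14698 tested probes (27 probes), and 3 had an unadjusted p under 0.05, against 9.44% of all tested probes. With the replicate number as a block, 2 of 15 passed, against 2.59% of all tested probes (380 probes; 0.973% higher in A46 and 1.61% higher in M1). The median difference of the 15 was 0.02 log2 units, beside 0.01 over all tested probes, with 8 values above 0 and 7 below. Both genes that passed with the block belong to marker lists of other cells. UGT8, which makes galactocerebroside for myelin, differed by -1.64 log2 units (limma adjusted p = 0.0624; 0.0287 with the block), opposite to TYR. ACKR1, which binds chemokines on the endothelium of venules, was higher in A46 by 0.66 (limma adjusted p = 0.430; 0.0473 with the block). The third gene with an unadjusted p under 0.05, the tetraspanin gene TSPAN2 of oligodendrocytes, differed by -0.38 (limma adjusted p = 0.287; 0.111 with the block).

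**Figure D4:**
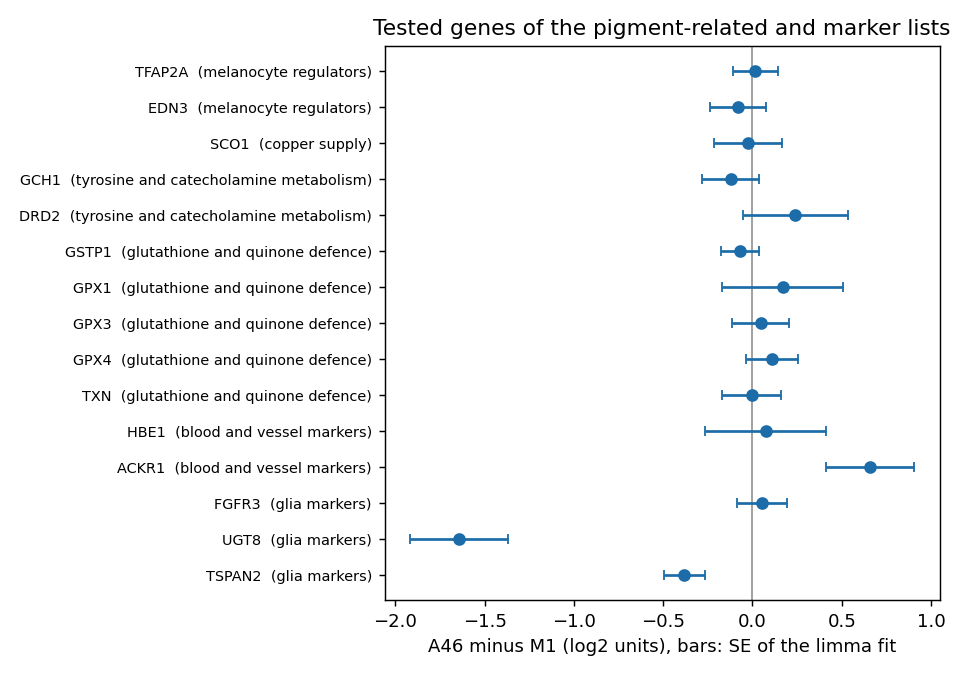
Log2 difference, A46 minus M1 (horizontal axis), of the 15 tested genes of the pigment-related and marker lists, as points with the SE of the limma fit as bars. The 10 pigment, copper, tyrosine and quinone defence genes lie between -0.12 and 0.24, while UGT8 lies at -1.64 and ACKR1 at 0.66.

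Markers of cells that could carry TYR RNA into a dissection were looked for. None of the 14 melanocyte markers and none of the 24 leptomeninges and fibroblast markers had a probe that was named here, so that their part in the TYR signal was not tested. Of the 16 blood and vessel markers 2 were tested. The embryonic globin gene HBE1 had an A46 level of -5.98 ± 0.62 (SD, n = 4) and an M1 level of -6.06 ± 0.48. It was highest on the 3 arrays of the later scan days, at -5.62 to -5.32, against -6.61 to -6.15 on the other 5. The negative control median was also highest on these 3 arrays, at 2.78 to 4.90 units against 1.11 to 1.41. TYR in A46 divided along the same line the other way, at -4.95 and -4.72 on the later arrays and -3.80 and -4.44 on the earlier ones. That split depends on the scaling to the 75th percentile. Before it the later A46 replicate 4 stood at 66.9 units, above the earlier replicate 2 at 63.0. The part of blood in the TYR signal was not tested. ACKR1 was 1.17, 1.48, 1.51 and 1.93 in A46 and 0.61, 0.62, 0.69 and 1.54 in M1, so that M1 replicate 4 lay among the A46 arrays, unlike for TYR. Whether a share of vessels moved with TYR was not tested beyond these values. None of the 20 neuron markers was named here. Of the 21 glia markers, FGFR3 of astrocytes, UGT8 and TSPAN2 were well above background on all 8 arrays. So were 14055 of all 20217 probes. Their detection is thus a weak check of the labelled tissue, and these names allow no other.

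The genes with the pattern most like that of TYR were found by the root mean square difference between centred levels over the 8 arrays, among 14682 tested probes with a value on every array. This measure is 0 for an identical pattern, and its median over all probes was 1.10 log2 units. A probe of the same level on all 8 arrays would stand at 1.06, the spread of TYR about its own mean. The 8 arrays fall into the 2 areas, so the measure mostly finds probes with a like area difference, and no test is given. The nearest named gene was EPHA3, a receptor for ephrin-A ligands in axon guidance, at 0.49. EPHA3 stood at -0.43, -0.80, -0.84 and -0.76 in A46 and at -2.25, -2.34, -1.69 and -1.96 in M1, a difference of 1.35 log2 units. Its A46 replicate 1 was the highest of that area, as for TYR. Within M1 the order differed, since EPHA3 was highest on replicate 3, where TYR was low, and lowest on replicate 2, where TYR was high.

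MCOLN3 came next, at 0.52. It encodes mucolipin 3, a cation channel of endosomes and lysosomes, and in the mouse altered forms of it cause the varitint-waddler trait of diluted, patchy coat colour and deafness. MCOLN3 stood at -1.59, -2.24, -3.22 and -2.32 in A46 and at -3.42, -3.55, -3.48 and -3.24 in M1. Within A46 replicate 1 was the highest and replicate 3 the lowest, as for TYR. The areas did not overlap, but the gap was 0.02 log2 units, since A46 replicate 3 lay next to M1 replicate 4. MCOLN3 was higher in A46 by 1.08 ± 0.30 (SE) log2 units, or 2.12-fold. Within M1 the genes differed in order, since replicate 2 was the lowest for MCOLN3 and, with replicate 4, the highest for TYR.

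The other three nearest named genes were TEX29, LAMB1 and GRIK1, at 0.72 to 0.76. TEX29 had an A46 level of -3.11 ± 0.07 (SD, n = 4) and an M1 level of -3.97 ± 0.41. LAMB1, a laminin chain of basement membranes, stood at 0.35 ± 0.12 and -0.41 ± 0.41. GRIK1, a kainate receptor subunit, stood at 0.01 ± 0.29 and -0.72 ± 0.30, and its areas overlapped by 0.01 units. The area differences of these 5 named genes, from 0.72 to 1.35 log2 units, were all smaller than that of TYR. Their deviations from the area means correlated with those of TYR at 0.79 for MCOLN3 and 0.26 for EPHA3. These deviations are part of the measure that picked the genes, so this correlation is not separate from the choice. For TEX29, LAMB1 and GRIK1 this correlation was -0.04, 0.09 and 0.11, so their likeness to TYR lay mostly in the area difference. Only 2 probes, both without a gene name, came nearer than EPHA3. A_01_P002915 was nearest at 0.32, with -4.80 ± 0.26 in A46 and -6.54 ± 0.30 in M1, well above background on 3 of the 4 M1 arrays. A_01_P004422 followed at 0.35, with -3.17 ± 0.40 and -5.49 ± 0.39. The next without a gene name, A_01_P012047, lay just beyond EPHA3 at 0.50, with -4.38 ± 0.31 and -5.94 ± 0.26. For A_01_P002915, A_01_P004422 and A_01_P012047 the correlation of deviations with TYR was 0.57, 0.61 and -0.07.

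**Figure D5:**
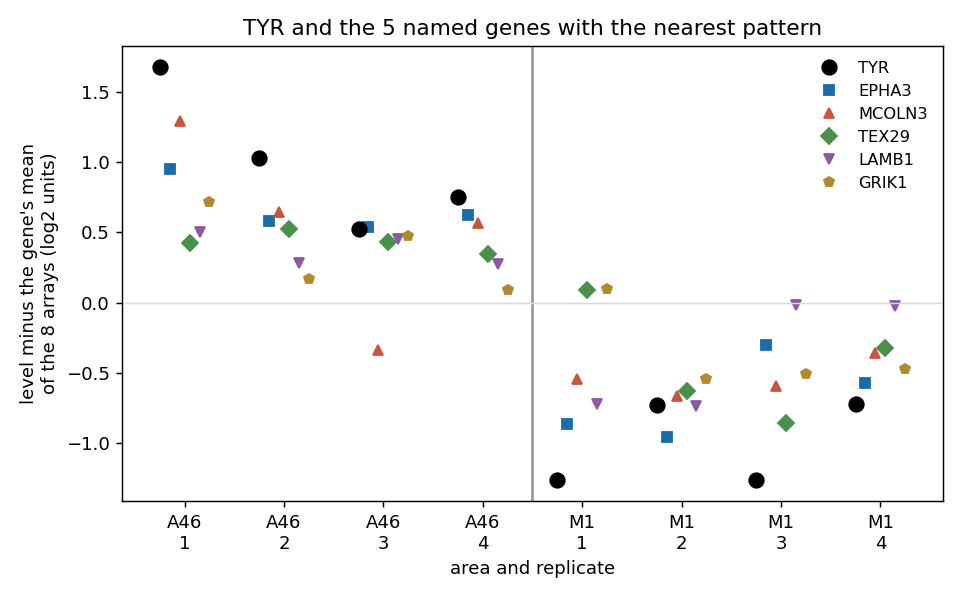
Levels of TYR (black) and of the 5 named genes nearest to it, each minus its own mean of the 8 arrays (vertical axis, log2 units), on the A46 and M1 arrays (horizontal axis, area and replicate). TYR spans the widest range, MCOLN3 falls below 0 on A46 replicate 3, and GRIK1 and TEX29 lie above 0 on M1 replicate 1.

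In the gene table of a newer macaque assembly TYR lies between GRM5, a metabotropic glutamate receptor gene, and NOX4, an oxidase gene, with RAB38, which sorts TYR and related proteins to melanosomes, as the third coding gene away. No probe was matched to any of the 5 coding genes on either side of TYR, so the level of its neighbours was not analysed here. The array was designed on the rheMac2 build, and coordinates are not given because the assemblies differ.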

How the data were processed

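RNA of M1 and A46, 4 arrays each, was amplified with an oligo(dT) primer, per the labels' protocols. Per the file headers, Agilent Feature Extraction 10.7.3.1 gave each spot's deposited intensity, background-subtracted and detrended within the array. The authors' deposited series table holds log2 values of unstated baseline, whose differences followed the scanner values (r at least 1.00 after rounding, 28 array pairs). Control spots (1417) and outlier spots (0 to 220 per array) were left out, log2 intensities of both spots were averaged, and each array's 75th percentile was subtracted. Tests used limma 3.58.1 in R 4.3.3 over all 14698 tested probes with Benjamini-Hochberg adjustment at 0.05. The number of arrays limits the precision. Names came from RefSeq identifiers matched without versions to T2T-MMU8v2.0, with the brightest probe of a gene used.

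TYR and the gene lists were chosen with earlier results of these data known. Named genes were TYR, the tested pigment genes, each other list's member of smallest p and called members, and the 5 named genes and 3 unnamed probes nearest to TYR. DRD2 values, TAT, TSPAN2, FGFR3, HBE1, GSTP1 and GPX1 were added after their values were seen.

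The labels do not say which animal a replicate number stands for. Deviations from area means over tested probes correlated at 0.73, 0.63, 0.17 and 0.86 for arrays numbered 1 to 4. Each was over the cut-off of 0.1, so the block was used beside the fit without it. Pair 3, of the lowest correlation, was scanned on different days, and the arrays of every other pair on a shared day. The correlations therefore cannot tell a shared animal from a shared scan day, and the block may stand for either wherever it was used. A46 replicate 3 correlated more with M1 replicate 4 (0.48), which was also scanned later. P-values otherwise measure the spread between arrays of an area.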

Additional observations from a re-analysis of the deposited data

Results flagged for a closer look

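In groups of 4 arrays, an array was singled out when its gap to the nearest other was above Dixon's 95% critical value for the share of the range. Of 62 groups looked at, 7 had such an array, where chance gives about 3.1. The level of TYR was not among them in either area. The TYR spots of M1 replicate 1 differed by 0.488 log2 units, against 0.08 to 0.14 on the other M1 arrays. M1 replicate 4 had a negative control median of 4.90 units (others 1.22 to 1.35), TAT at -8.62 (others -10.0 to -9.96, none well above background) and ACKR1 at 1.54 (others 0.61 to 0.69). DRD2 lay at -3.92 on A46 replicate 1 (others -3.22 to -3.19). UGT8 lay at -1.14 on M1 replicate 2 (others -2.28 to -2.13), and GRIK1 at -0.26 on M1 replicate 1 (others -0.90 to -0.83).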

How the results depend on the processing

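TYR was higher in A46 under all 32 alternatives, and under 25 of them the difference stayed within 1 pooled SD (0.42) of 1.99 log2 units. The sign is no test, since TYR was chosen by this contrast. In every alternative that only leaves out or selects arrays, the lack of overlap fixed it beforehand. It moved farther with no background subtraction (0.85), with normexp (0.72), within the second scan day and the shared slide, which are 1 pair (2.95), within the third scan day (1.48), and within the earlier (2.44) and later scan days (1.36). Leaving out each array gave 1.77 to 2.15. The replicate block left the difference at 1.99, as it must where each number has 1 array per area. Of all tested probes, 27 passed, against 380 with the replicate block, 153 with the scan day as a block, 41 with normexp, 0 with no filter on dim probes (limma; 1371 at an unadjusted p under 0.05) and 0 to 6 with an array left out (974 to 1799 at an unadjusted p under 0.05), 6 being without M1 replicate 4 and 0 without any other array. Of the 15 list genes 0 passed in these fits, except 2 with the replicate block. The cause was not tested. Normexp and the uncorrected signal were run on median signals, in place of mean ones, which were not used. The subtraction of negative controls, the split into earlier and later days and normexp for the counts were chosen after seeing the data. TYR in M1 was limited by signal over background, at 1.38 to 2.21 times the local background.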
